A study of Mus musculus with 4 samples.

Results

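The receiving side of ErbB signalling was examined in alveolar type II (AT2) cells, which make surfactant and renew the alveolar lining, with and without the RNA demethylase Alkbh5. It was taken as 10 genes named by symbol: the 4 ErbB receptors (Egfr, Erbb2, Erbb3, Erbb4), the sheddases Adam17 and Adam10 that release membrane-bound ligands, the iRhoms Rhbdf1 and Rhbdf2 that accompany Adam17, and the feedback inhibitors Errfi1 and Lrig1. All 10 had a row among the 40092 gene rows of the count table, and 8 of them passed the filter on low counts among 16661 genes tested. Erbb4 and Errfi1 did not pass it. Control mice (Ctrl) were Alkbh5 flox/+; Sftpc-CreERT2; Rosa26-mTmG, and knockout mice (A5-CKO) were Alkbh5 flox/flox; Sftpc-CreERT2; Rosa26-mTmG. The groups were littermates on a C57BL/6 background, both given tamoxifen and then bleomycin, a drug that injures the alveoli, and both carried a floxed Alkbh5 allele, the Cre and the reporter. Recombination was thus limited to cells that use the Sftpc promoter, and cells that leave the AT2 state keep the label. GFP+ cells were sorted on day 14 after bleomycin, and RNA-seq was done on 2 Ctrl and 2 A5-CKO libraries. Age and sex were not given in the sources used here. The labels do not say that each library came from its own mouse, so the p-values measure the spread between these libraries.

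ErbB receptors are tyrosine kinases that pair after ligand binding. EGFR, ERBB3 and ERBB4 bind ligands, ERBB2 has none of its own and serves as a partner, and ERBB3 has a weak kinase and signals through its partner, mainly to PI3K. Amphiregulin, HB-EGF and TGF-alpha are made as membrane-bound precursors and are cut free chiefly by ADAM17, EGF and betacellulin chiefly by ADAM10, and the iRhoms carry ADAM17 to the cell surface and choose what it cuts. ERRFI1 (also called MIG6) blocks the EGFR kinase, and LRIG1 lowers the amount of ErbB receptors on the cell. In the alveolus this pathway is known for its part in growth and repair of the epithelium. The study asked what Alkbh5 does in alveolar regeneration from AT2 cells, and these genes are the transcripts by which such cells receive ErbB ligands, release them and limit the response.

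The libraries held from 18144865 to 20811757 counts, and levels are given as CPM, the counts scaled to a common library size, with edgeR's TMM factors, which ran from 0.86 to 1.13. The summed level of 12 AT2 markers was 69300 and 97400 CPM in the Ctrl libraries (1 and 2) and 51300 and 42600 CPM in the A5-CKO libraries (1 and 2). Of the 12, 9 were lower in both A5-CKO libraries, as were 23.5% of all tested genes, and none was at 0. Markers of other cells stayed far below this, at 1660 to 4070 CPM for 10 genes of transitional cells, 2150 to 2340 CPM for 10 AT1 genes, 1890 to 2570 CPM for 12 macrophage and leukocyte genes, 1370 to 3000 CPM for 8 club and ciliated cell genes, 153 to 725 CPM for 7 lymphocyte genes and 131 to 265 CPM for 9 endothelial genes. The AT1 sum hides unlike directions. Of the 8 AT1 genes tested, Hopx, Cav1, Clic5 and Akap5 were higher in both A5-CKO libraries (20.3% of all tested genes). Aqp5 was lower in both (23.5% of all tested genes), with 981 and 951 CPM in Ctrl and 479 and 636 CPM in A5-CKO. The median log2 fold change of these 8 was 0.6. Sftpb, an AT2 marker, and Pdpn, an AT1 marker, each had a further gene row that the marker sums leave out. For Sftpb it held 25108, 42356, 22208 and 23312 counts (Ctrl 1 and 2, then A5-CKO 1 and 2). The row used held 4639, 7210, 3313 and 3942. For Pdpn the further row held 41, 18, 73 and 52 counts, against 3, 0, 17 and 3 in the row used. The 10 mesenchymal genes summed to 540, 197, 143 and 1320 CPM in Ctrl 1, Ctrl 2, then A5-CKO 1 and 2, and the 11 macrophage and leukocyte genes other than Lyz1 to 1090, 391, 523 and 1160 CPM, so that Ctrl 1 and A5-CKO 2 were the higher library of their genotype in both. The deleted gene went with its labels. Alkbh5 (chromosome 11, 60537683 to 60558512, GRCm38.p6) had 81.7, 152, 19.3 and 36.6 CPM in the same order, a change of -2.06 on the log2 scale (standard error 0.46). In edgeR's quasi-likelihood test the Benjamini-Hochberg adjusted p was 0.528, the smallest value that any gene reached. Reads outside the floxed first exon could still be counted, since the transcript has 4 exons.

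Per kilobase of exon, which allows genes to be compared with each other, Erbb3 and Adam10 had the highest levels and Egfr was a scarce transcript. The mean level over the 4 libraries was 31.9 CPM per kb for Erbb3, 24.7 for Adam10, 21.6 for Rhbdf2, 18.5 for Erbb2, 16 for Rhbdf1, 13.9 for Adam17, 8.45 for Lrig1 and 1.11 for Egfr. From Erbb3 down to Lrig1, each gene overlapped its neighbour in this order over the libraries, so that the neighbours did not differ beyond their spread. This order also depends on the length used, which was all exon bases of a gene. These were 7154 for Adam17 and 5433 for Rhbdf1, where the longest protein-coding transcript has 4469 and 2946. Egfr stood apart, since its highest library (1.4 CPM per kb) lay below the lowest of Lrig1 (5.65 CPM per kb). At this level 22% of the tested genes with a known length were as low as Egfr or lower, against 88.4% for Erbb3 and 80.1% for Erbb2. Errfi1 at 0.0442 and Erbb4 at 0.00765 CPM per kb were close to the detection floor.

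Erbb3 and Erbb2 made up nearly the whole receptor pool in every library. Shares of counts per kb within a library do not depend on the scaling between libraries. Egfr held 2.02% and 1.57% of the receptor pool in the Ctrl libraries, against 2.14% and 3.34% in the A5-CKO libraries. Both A5-CKO shares were above both Ctrl shares, by 0.95 percentage points between the means (1.79% ± 0.317 against 2.74% ± 0.846, SD, n = 2 each). An exact two-sided permutation test of the 4 libraries gave p = 0.33, the smallest value that 2 against 2 libraries allow. The difference was 0.352 percentage points without A5-CKO 2 and 1.55 without A5-CKO 1. After a correction of each library for GC content and transcript length, chosen for these shares after seeing the data, Egfr held 2.32%, 1.98%, 1.69% and 2.98% and the genotypes overlapped. Erbb3 held 49.7%, 64.7%, 67.7% and 62.7% in the same order, and Erbb2 held 48.3%, 33.7%, 30.2% and 33.9%. For both genes Ctrl 1 stood apart and Ctrl 2 lay among the A5-CKO libraries (exact permutation p = 0.667 for each). Erbb3 exceeded Egfr per unit of length 24.7, 41.3, 31.6 and 18.8 times, and Erbb2 exceeded Egfr 23.9, 21.5, 14.1 and 10.2 times. The ratio of Erbb2 to Egfr was thus lower in both A5-CKO libraries, again with the smallest possible exact permutation p of 0.33, but with the correction it was 19.3, 16.7, 18.7 and 12.2 and overlapped.

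**Figure D1:**
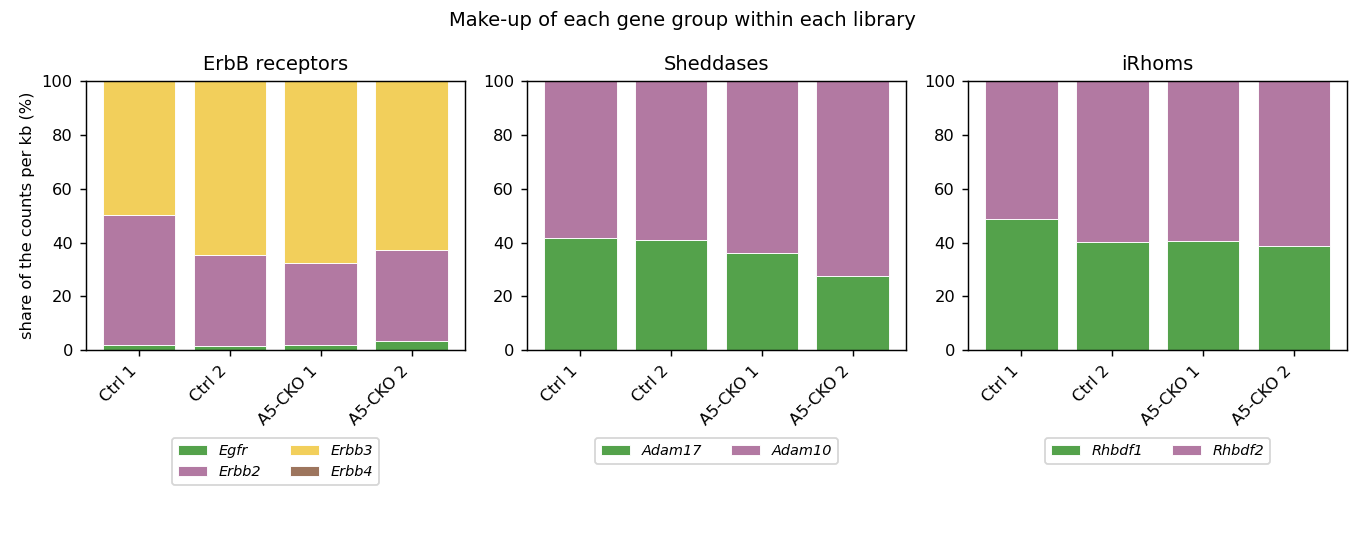
Share (%) of each gene in the counts per kb of its group within each of the 4 libraries, as stacked bars that add up to 100%, for the ErbB receptors, the sheddases and the iRhoms. Egfr is the thin band at the bottom (1.57% to 3.34%), Erbb4 is too small to see, and Adam10 holds more of the sheddase pool in both A5-CKO libraries (63.7% and 72.5%) than in both Ctrl libraries (58.2% and 59%).

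The comparison between genotypes found no gene past the threshold. No member had an adjusted p under 0.05 in edgeR, where 0% of the 16661 tested genes did, and none had an unadjusted p under 0.05, where 4.48% of all tested genes were higher and 4.71% lower in A5-CKO. DESeq2 on the same genes called 55 genes at an adjusted p under 0.05 and 59 with its default filtering, and no member was among them. Adam10 was the single member with both A5-CKO libraries above both Ctrl libraries, a pattern that 20.3% of all tested genes had. Erbb2, Lrig1, Rhbdf1 and Rhbdf2 had both A5-CKO libraries below both Ctrl libraries, as 23.5% of all tested genes had. Egfr, Erbb3 and Adam17 overlapped between the genotypes. The 8 fold changes had a median of -0.24 on the log2 scale, with 2 genes above 0 and 6 below, beside a median of -0.02 over all tested genes. This count depends on the scaling, since with total counts only the median of all genes moved to 0.30, that of the members to 0.09, and 5 of the 8 lay above 0. Under that scaling Erbb2 was the single member lower in both A5-CKO libraries, and Egfr and Adam10 were higher in both.

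**Figure D2:**
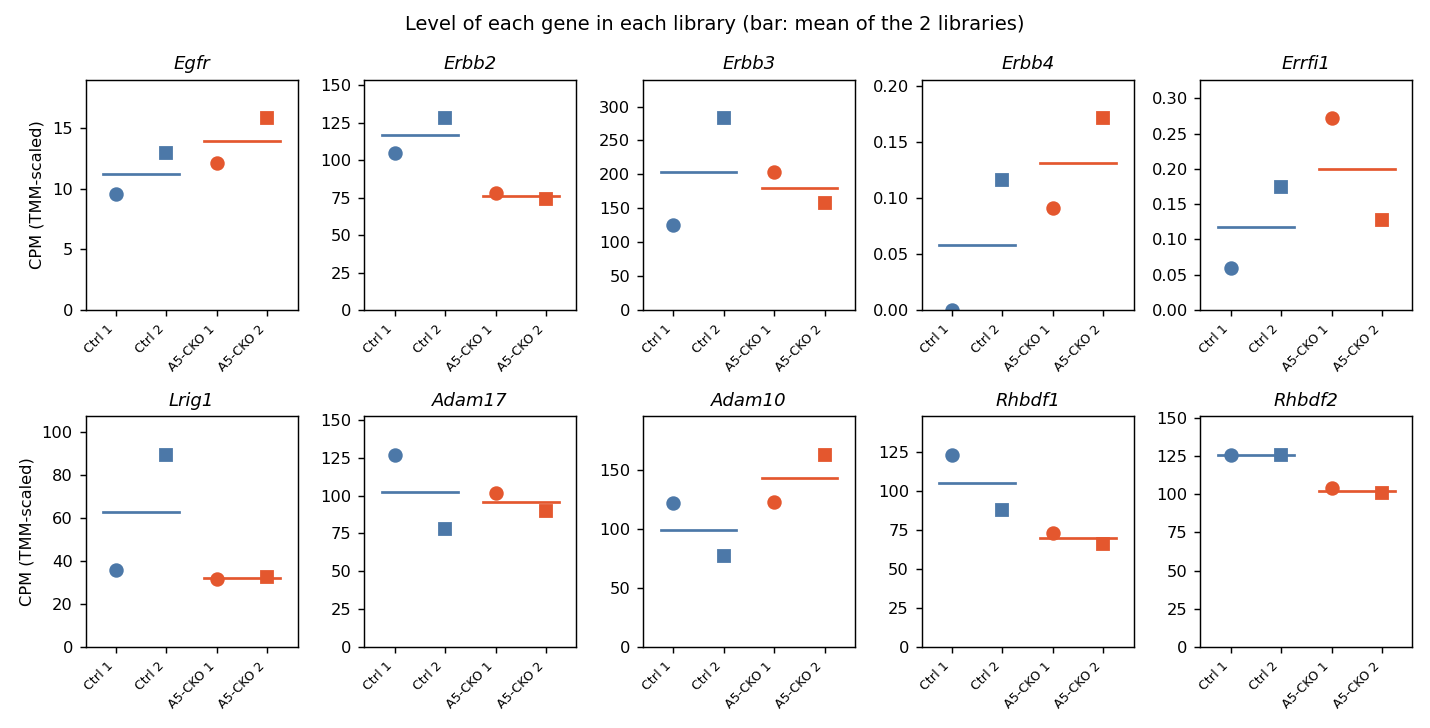
Level of each of the 10 genes in each library in CPM (TMM-scaled, axes from 0 with a scale for each gene), circles for replicate 1 and squares for replicate 2, blue for Ctrl and red for A5-CKO, with a bar at the mean of each group. Erbb2 and Rhbdf2 show close replicates with the A5-CKO pair lower, whereas in Erbb3 and Lrig1 the Ctrl libraries lie far apart (125 and 283 CPM, 35.7 and 89.3 CPM). With total counts only in place of TMM, Rhbdf2 is no longer lower in both A5-CKO libraries.

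Egfr (chromosome 11, 16752203 to 16913907, plus strand) encodes the receptor for amphiregulin, HB-EGF, TGF-alpha and EGF. It had 161, 222, 267 and 370 counts, or 9.52 and 12.9 CPM in Ctrl and 12.1 and 15.8 CPM in A5-CKO. The highest library was A5-CKO 2 and the lowest Ctrl 1, but A5-CKO 1 lay just under Ctrl 2, so the groups overlapped. A5-CKO 2 was also the library with the highest mesenchymal sum (1320 CPM, against 143 in A5-CKO 1), as it was for Adam10, and the part of those cells in either level was not tested. Its mean was 11.2 ± 2.4 CPM in Ctrl and 14 ± 2.64 CPM in A5-CKO (SD, n = 2 each), and the log2 fold change of 0.31 (standard error 0.42) had a 95% interval from -0.69 to 1.32. The libraries of a genotype differed from each other by 0.44 in Ctrl and 0.39 in A5-CKO on the log2 scale, as much as the genotypes did. Leaving out 1 library moved the value between 0.08 (without A5-CKO 2) and 0.51 (without Ctrl 2). With edgeR the adjusted p was 0.809. Its sign turned to -0.2 (standard error 0.37) after a correction for GC content and transcript length. Among 101 tested genes of the pathway lists, those with the pattern most like that of Egfr over the 4 libraries were Ptpn11, Spred1 and Ptprj, with a root mean square difference of 0.09, 0.11 and 0.11 on the log2 scale.

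Erbb2 (chromosome 11, 98412484 to 98437716, plus strand), the partner receptor without a ligand, had 105 and 128 CPM in Ctrl and 78.2 and 73.9 CPM in A5-CKO. Both A5-CKO libraries were lower, and they lay closer to each other than the Ctrl libraries did. Its mean was 116 ± 16.2 CPM in Ctrl and 76 ± 3.09 CPM in A5-CKO (SD, n = 2 each). The fitted change was -0.61 on the log2 scale (standard error 0.29, 95% interval -1.29 to 0.07), which did not pass the test (edgeR adjusted p = 0.528, unadjusted p = 0.07). Of the 8 genes it was among those that moved least when a library was left out, between -0.69 and -0.51, and it stayed below 0 in all 18 alternatives, but with total counts only it was -0.29. Its locus shares 9 bases with Mien1 on the other strand, which had 1794, 1200, 960 and 1038 counts.

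Erbb3 (chromosome 10, 128567523 to 128589635, minus strand), the neuregulin receptor that couples to PI3K, had 125 and 283 CPM in Ctrl and 203 and 158 CPM in A5-CKO. The Ctrl libraries spanned the whole range and both A5-CKO libraries fell between them. They differed by 1.18 on the log2 scale, against 0.36 between the A5-CKO libraries, where the second was the lower. No direction can be given for its log2 fold change of -0.18 (standard error 0.44, 95% interval -1.22 to 0.86, edgeR adjusted p = 0.901), which was -0.6 without Ctrl 1 and 0.48 without Ctrl 2. Erbb3 and the AT2 marker sum were both highest in Ctrl 2, and the part of the marker level in this value was not tested. In bulk samples fewer cells of a type and less RNA per cell cannot be told apart.

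Erbb4 (chromosome 1, 68031884 to 69108576, minus strand), the other neuregulin receptor, was at the limit of detection. It had 0 and 2 counts in the Ctrl libraries and 2 and 4 in the A5-CKO libraries. A count of 3, taken as the floor, corresponds to 0.128 to 0.177 CPM in these libraries, for counting error only. No fold change is given, and a difference between the genotypes was not detectable at this depth.

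Errfi1 (chromosome 4, 150853796 to 150868889, plus strand), the cytoplasmic EGFR inhibitor, was listed at 1, 3, 6 and 3 counts, also too few for a test. An antisense lncRNA, 1700045H11Rik, shares 1154 bases with it and had 0, 1, 2 and 0 counts. Low rows were found elsewhere in the pathway, where Pik3r2, a widely used regulatory subunit of PI3K, was listed at 1, 1, 1 and 2 counts, and among AT1 markers, where Ager was listed at 2, 6, 2 and 4 counts. What gave these rows so few counts was not tested, so only the listed values are reported.

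Lrig1 (chromosome 6, 94604529 to 94700298, minus strand), the membrane protein that limits ErbB receptors, had the lowest fold change of the 8. Its level was 35.7 and 89.3 CPM in Ctrl and 31.6 and 32.2 CPM in A5-CKO. Both A5-CKO libraries were lower, but Ctrl 1 lay within 0.18 and 0.15 of them on the log2 scale and Ctrl 2 stood apart from all others. Its mean was 62.5 ± 37.9 CPM in Ctrl and 31.9 ± 0.476 CPM in A5-CKO (SD, n = 2 each). A log2 fold change of -0.97 (standard error 0.45, 95% interval -2.05 to 0.11) gave an adjusted p of 0.529 in edgeR. It rested on Ctrl 2, since it was -1.43 without Ctrl 1 and -0.21 without Ctrl 2. AT2 markers were again highest in Ctrl 2 (97400 CPM, against 69300 in Ctrl 1), and their part in the result was not tested. Relative to its target receptors within each library, Lrig1 per unit of length was 7.61, 14, 5.29 and 4.13 times Egfr and 0.308, 0.34, 0.168 and 0.22 times Erbb3. Both ratios were lower in both A5-CKO libraries, each with the smallest exact permutation p of 0.33. With the GC and length correction the ratio to Egfr overlapped (6.28, 11, 6.97 and 4.85), and that to Erbb3 did not (0.276, 0.335, 0.176 and 0.238). On the other strand Slc25a26 shares 131 bases with Lrig1 and had 144, 189, 158 and 142 counts.

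The sheddases differed in which library was high. Adam10 (chromosome 9, 70678944 to 70780229, plus strand) had 122 and 76.9 CPM in Ctrl and 123 and 163 CPM in A5-CKO. Both A5-CKO libraries were higher, yet A5-CKO 1 exceeded Ctrl 1 by 0.01 on the log2 scale. Its mean was 99.5 ± 32 CPM in Ctrl and 143 ± 28.2 CPM in A5-CKO (SD, n = 2 each), with a log2 fold change of 0.52 (standard error 0.35, 95% interval -0.31 to 1.35, edgeR adjusted p = 0.608). It stayed above 0 in all 18 alternatives, from 0.19 without Ctrl 2 to 0.96 without Ctrl 1.

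Adam17 (chromosome 12, 21323509 to 21373632, minus strand), the main sheddase of amphiregulin, had 127 and 77.7 CPM in Ctrl and 102 and 90.1 CPM in A5-CKO. Both A5-CKO libraries lay between the Ctrl libraries. Its mean was 103 ± 35.2 CPM in Ctrl and 96 ± 8.35 CPM in A5-CKO (SD, n = 2 each), and the log2 fold change of -0.1 (standard error 0.34, 95% interval -0.9 to 0.7, edgeR adjusted p = 0.931) turned to 0.36 without Ctrl 1. Its locus shares 99 bases with Iah1 on the other strand, which had 3605, 3103, 2569 and 1815 counts, more than Adam17 in 3 of the 4 libraries.

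The balance of the sheddases within a library does not depend on scaling. Adam10 held 58.2% and 59% of their counts per kb in Ctrl, and 63.7% and 72.5% in A5-CKO. The Ctrl libraries nearly coincided although each gene differed between them by about 0.7 on the log2 scale (-0.71 for Adam17 and -0.67 for Adam10). The mean share was 58.6% ± 0.559 in Ctrl and 68.1% ± 6.19 in A5-CKO (SD, n = 2 each), a difference of 9.45 percentage points with an exact permutation p of 0.33, the smallest possible. With the correction the shares were 57.5%, 61.8%, 61.9% and 72.2%, so that A5-CKO 1 and Ctrl 2 nearly coincided.

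The iRhoms both had lower levels in both A5-CKO libraries under TMM scaling. Rhbdf1 (chromosome 11, 32209585 to 32222331, minus strand) had 123 and 87.3 CPM in Ctrl and 73 and 65.9 CPM in A5-CKO, with means of 105 ± 24.9 and 69.4 ± 5.03 CPM (SD, n = 2 each). Its log2 fold change of -0.6 (standard error 0.31, 95% interval -1.32 to 0.13, edgeR adjusted p = 0.549) was -0.27 without Ctrl 1 and -0.86 without Ctrl 2, and -0.29 with total counts only. Rhbdf2 (chromosome 11, 116598148 to 116626960, minus strand), which is known chiefly from immune cells, had the narrowest spread between the Ctrl libraries of the 8 genes. It had 126 and 126 CPM in Ctrl and 104 and 101 CPM in A5-CKO, with means of 126 ± 0.463 and 103 ± 2.59 CPM (SD, n = 2 each). The genotypes did not overlap, but the change of -0.29 on the log2 scale (standard error 0.28, 95% interval -0.95 to 0.36, edgeR adjusted p = 0.712) was small against the spread that edgeR fits across genes, and with total counts only it was 0.02. Rhbdf2 held 51.3%, 59.7%, 59.5% and 61.1% of the iRhom counts per kb, which overlapped between the genotypes. With the correction they were 49%, 59.8%, 60% and 62.7%, where A5-CKO 1 lay just above Ctrl 2.

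**Figure D3:**
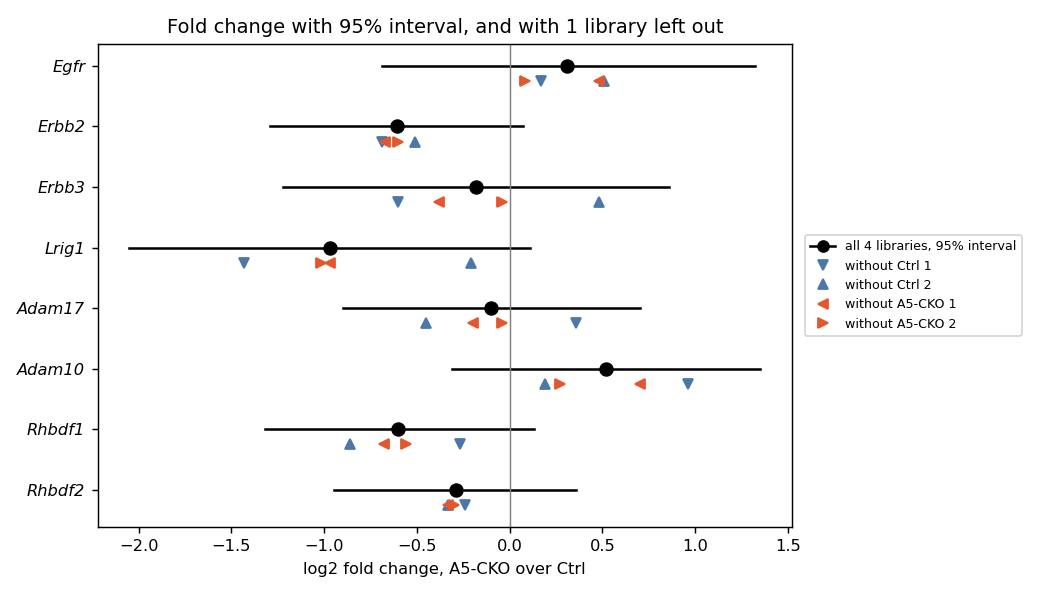
Log2 fold change of A5-CKO over Ctrl for the 8 genes tested (black points, edgeR) with its 95% interval (line), and below each the value with 1 library left out (triangles). Every interval includes 0, Erbb2 and Rhbdf2 move least, and Erbb3 and Adam17 lie on both sides of 0 depending on which Ctrl library is left out (0.48 and 0.36 at the highest).

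Over the 4 libraries, the genes whose patterns were closest were Erbb2 and Rhbdf2, with a root mean square difference of 0.18 on the log2 scale, followed by Rhbdf1 and Rhbdf2 at 0.23 and Adam17 and Rhbdf1 at 0.27. The receptor Erbb3 was closest to Lrig1 (0.4), both being highest in Ctrl 2. Lrig1 and Adam10 were farthest apart (0.98). These are descriptions over 4 libraries that all genes share.

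Over the 8 genes tested, fold changes tended to be lower where the GC content of the transcript was higher. Adam10 and Egfr, the genes with positive fold changes, had the lowest GC contents, 42.1% and 44.4% of the longest transcript. Adam17 (45.1%) and Erbb3 (51.2%) came next with values near 0, and Lrig1 (55.1%), Rhbdf1 (56.8%), Erbb2 (57.3%) and Rhbdf2 (58.7%) were the genes lower in both A5-CKO libraries. Spearman's rho between fold change and GC content was -0.79 over the 8 genes. It was -0.32 over 101 pathway genes and -0.37 over 15237 tested genes with a known sequence, all of which share the same 4 libraries, so the tilt was not particular to ErbB genes. Between the libraries of a genotype, rho over all genes was 0.15 in Ctrl and 0.12 in A5-CKO. Over the 8 genes it was 0.19 in Ctrl and -0.33 in A5-CKO. After a correction of each library for GC content and transcript length, rho over all genes was -0.02 and over the 8 genes -0.33. The corrected log2 fold changes were -0.47 for Erbb2, -0.81 for Lrig1, -0.51 for Rhbdf1 and 0.2 for Adam10, while Rhbdf2 moved from -0.29 to -0.06. Under the correction 1 of the 8 values was above 0, that of Adam10, and none had an unadjusted p under 0.05 in edgeR. The nuclear RNAs Malat1, Neat1 and Xist, summed, stood at 1330 and 1230 CPM in Ctrl and 6820 and 2440 CPM in A5-CKO. Xist alone stood at 149 and 123 CPM in Ctrl and 805 and 390 CPM in A5-CKO, and the sex of the mice is not known. The part of these RNAs, or of sex, in the fold changes was not tested.

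**Figure D4:**
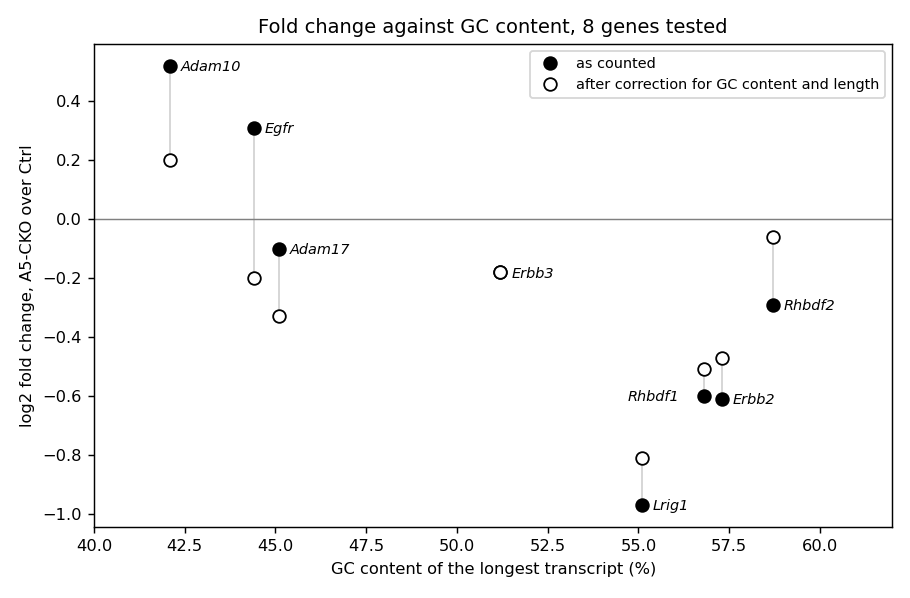
Log2 fold change of A5-CKO over Ctrl (y axis) against the GC content in % of the longest transcript (x axis) for the 8 genes tested, as counted (filled) and after the correction for GC content and length (open), joined by grey lines. The filled points fall from Adam10 (42.1% GC, 0.52) to Lrig1 (55.1% GC, -0.97), and Egfr crosses 0 to -0.2 on correction.

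Alkbh5 removes N6-methyladenosine from RNA, a mark laid down at short motifs of which GGACT is the most common form. The motif was therefore counted on the sense strand of the longest protein-coding transcript of each gene, where its copies cannot overlap each other. It is a frequent string, present in 87.6% of 21877 protein-coding genes with a median of 1.008 copies per kb and quartiles of 0.561 and 1.504. Rhbdf1 (2.037 per kb, 6 copies) and Lrig1 (2.02 per kb, 10 copies) were above the upper quartile. Erbb3 had 1.496 per kb, Erbb2 1.197 and Egfr 1.176 (12 copies), Erbb4 0.831, Rhbdf2 0.778 and Adam10 0.653, and Adam17 (0.448) and Errfi1 (0.329) were below the lower quartile. The copy nearest to the end of the coding sequence is shown for the genes that the comparison turns on, as 25 bases of GRCm38.p6 from 5′ to 3′ on the gene's strand with GGACT in capitals, because the mark is known to gather around the stop codon. A match is a string of letters and not a methylated site, and the methylation data of the study were not analysed here.
Egfr, last exon (28), 3′ UTR, chr11:16911880-16911904, plus strand: taaaatgtctGGACTttctagaatc
Erbb2, exon 27, 3′ UTR, chr11:98437037-98437061, plus strand: caccccactaGGACTgaggcacgtg
Erbb3, exon 28, coding sequence, chr10:128569609-128569633, minus strand: ctccagatgaGGACTatgaatacat
Lrig1, exon 19, coding sequence, chr6:94605977-94606001, minus strand: gattcctcttGGACTttagcaaagt
Adam10, exon 14, coding sequence, chr9:70768842-70768866, plus strand: ttcagtggtcGGACTatcactctgc
Rhbdf1, exon 18, 3′ UTR, chr11:32209780-32209804, minus strand: aaccagccgtGGACTccccaggcca

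In Rhbdf1 and Egfr this copy began 13 and 38 bases after the coding sequence, whereas in Adam10 the nearest copy began at -379, upstream of its last base. Of the genes with the fewest copies per kb that were tested, Adam10 had the highest fold change and Adam17 one near 0, and of those with the most, Lrig1 and Rhbdf1 had values of -0.97 and -0.6. Between them lay Rhbdf2 (0.778 per kb) at -0.29, Egfr (1.176) at 0.31, Erbb2 (1.197) at -0.61 and Erbb3 (1.496) at -0.18. The genes with the most copies per kb thus had lower values than those with the fewest, without a steady order among the genes between them. A relation between copies per kb and fold changes was not tested. GGACT holds 3 G or C bases of 5, so copies per kb are not independent of the GC content.

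The genes around the receptors were counted in 7 fixed lists with 106 genes, of which 101 could be tested. The adjusted p from edgeR stayed above 0.05 for each of the 101. At an unadjusted p under 0.05 there were 5 higher and 3 lower in A5-CKO, where 4.48% and 4.71% of all tested genes were. In 24 both A5-CKO libraries were higher and in 14 both were lower, beside 20.3% and 23.5% of all tested genes. The ligands, which bind these receptors, had the highest median log2 fold change, 1.13 (1.43 with total counts only). Of the 9 tested, 7 were above 0, beside 8183 of all 16661 tested genes. In 5 of the 9 both A5-CKO libraries were higher (20.3% of all tested genes). Among these 5, Egf had 8, 2, 26 and 12 counts and Nrg2 8, 6, 15 and 24 (Ctrl 1 and 2, then A5-CKO 1 and 2). Both passed the filter on low counts only through their A5-CKO libraries, so the filter partly fixed their direction. Hbegf had 53.6 and 32.2 CPM in Ctrl and 122 and 85.7 CPM in A5-CKO (log2 fold change 1.27), and Areg (amphiregulin) had a value of 1.13. Ereg (epiregulin) overlapped, with 3.07, 0.116, 1.99 and 18.3 CPM.

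Partners of shedding had 7 of 15 above 0 and a median of -0.28 (0.04 with total counts only). In both A5-CKO libraries 2 were higher and 5 lower, beside 20.3% and 23.5% of all tested genes. Adam9, a further membrane protease, had 121 and 93.3 CPM in Ctrl and 150 and 208 CPM in A5-CKO. Timp3, an inhibitor of ADAM17, stood at 0.72 on the log2 scale (standard error 0.32), and Adam8 at 0.97 (standard error 0.53). Adam8 overlapped between the genotypes, with 24.2 and 15.5 CPM in Ctrl and 20.6 and 57.4 CPM in A5-CKO. None of the 15 had an unadjusted p under 0.05 in edgeR. The other inhibitors and phosphatases had 8 of 14 above 0 with a median of 0.19, again none at that level. Socs4, Spred1 and Lrig2 had the smallest p there, with log2 fold changes of 0.6, 0.46 and 0.67, which became -0.02, -0.02 and 0.31 after the GC and length correction.

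Among 17 genes of receptor ubiquitination and endocytosis the median was 0.01. Cblc, an E3 ligase of epithelial cells that tags EGFR for degradation, had 94.1 and 68.3 CPM in Ctrl and 44.6 and 38.3 CPM in A5-CKO. Its change of -0.97 on the log2 scale (standard error 0.31, edgeR adjusted p = 0.528) was -0.5 after the correction. Epn1 and Cblb had values of -0.69 and 0.92. Further downstream, the adaptors and RAS-MAPK relay had a median of -0.14 over 17 genes (0.18 with total counts only), with Braf at 1.02, Mapk3 (ERK1) at -0.76 and Map2k2 (MEK2) at -0.62. The PI3K, AKT and mTOR list had a median of 0.1 over 15 genes, with Rictor at 1.36 and Akt2 at -0.89. After the correction Braf, Rictor and Akt2 stood at 0.43, 0.79 and -0.77, and Mapk3, Map2k2 and Epn1 at -0.35, -0.22 and -0.29. Transcripts that EGFR signalling is known to induce had 9 of 14 above 0, beside 8183 of all 16661 tested genes. In 2 of the 14 both A5-CKO libraries were higher, where 20.3% of all tested genes were, and 12 overlapped. Their median was 0.41. After the correction it was 0.68 with 12 of 14 above 0, beside 7324 of 15237 genes. Dusp5, an ERK phosphatase of this list, had 6.56 and 6.4 CPM in Ctrl and 18.8 and 11.2 CPM in A5-CKO (log2 fold change 1.21, standard error 0.46). Fosl1 had a value of 1.52 (standard error 0.71), with 3.9 and 1.86 CPM in Ctrl and 4.3 and 12.3 CPM in A5-CKO. Etv5 had a value of -1 (standard error 0.56) but overlapped, with 716 and 2170 CPM in Ctrl and 849 and 601 CPM in A5-CKO.

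**Figure D5:**
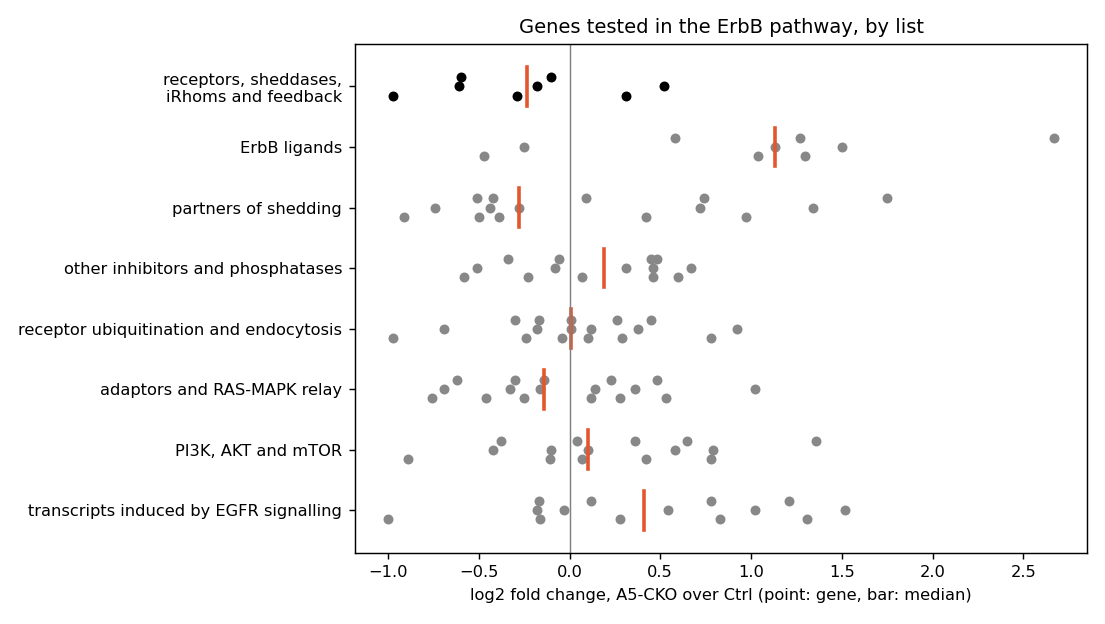
Log2 fold change of A5-CKO over Ctrl for each gene tested (points) with the median of each list (red bars), the 8 genes of the receptor and shedding group in black and 7 pathway lists in grey. The ligands lie to the right with a median of 1.13, while the black points lie between -0.97 and 0.52 with a median of -0.24. Among the ligands, Egf and Nrg2 passed the filter on low counts only through their A5-CKO libraries. With total counts only, the medians of the black points, the partners of shedding and the RAS-MAPK relay are above 0 (0.09, 0.04 and 0.18).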

How the data were processed

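Paired-end reads were, per the labels and the study's methods, trimmed with Trim Galore 0.6.10, aligned to mm10.p6 with HISAT2 2.2.1 and counted per gene with featureCounts 2.0.3 on an NCBI annotation. The authors deposited whole read counts without normalization. Their methods name removal of ribosomal RNA reads and of duplicates; the counting is described under MeRIP-seq and was taken to hold here. The strand setting was not given in the sources used here, so genes that overlap are uncertain. Removal of duplicates can compress high counts.

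Groups were compared in R 4.3.3 with edgeR 4.0.16 (TMM, filterByExpr, glmQLFit, glmQLFTest), with p-values adjusted over 16661 genes by Benjamini and Hochberg's method. Dispersion was 0.173 in common, which is 41.6% as a biological coefficient of variation. DESeq2 1.42.0, limma 3.58.1 (voom), other scalings and filters, the replicate number as a block, leaving out each library, and a correction with per-library splines (4 degrees of freedom) on GC content and transcript length, which covered 91.5% of the tested genes, were alternatives. Intervals are 95% intervals of the edgeR fit. Coordinates, lengths and sequences are from the RefSeq and GENCODE annotation of GRCm38.p6, in which all 10 genes were found.

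The 10 genes and the lists were chosen with earlier results of these data known. In each pathway list the 3 tested genes with the smallest p were named, except a gene that is not reported here. Pik3r2, Ager and the overlapping genes were added after their values were seen.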

Additional observations from a re-analysis of the deposited data

How the results depend on the processing

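With 2 libraries in each group, no member passed an adjusted p of 0.05 in any of the 18 alternatives. At an unadjusted p under 0.05 in edgeR there were 2 members without Ctrl 1 (Lrig1 and Adam10), 1 without Ctrl 2 (Rhbdf1), and 0 without either A5-CKO library, beside 9.25%, 7.77%, 4.3% (without A5-CKO 1) and 6.85% of all genes tested in those fits, in which a group of 1 library is assumed to vary like the other. The members' median log2 fold change was -0.13 with upper-quartile factors and 0.09 with total counts only, where that of all genes was 0.30 and the genes at an unadjusted p under 0.05 split into 1706 higher and 171 lower, against 746 and 784 with TMM. It lay between -0.36 and -0.17 when 1 library was left out, the extremes being without A5-CKO 1 and without A5-CKO 2. With total counts only, the values of Erbb3, Adam17 and Rhbdf2 turned to 0.16, 0.21 and 0.02. Egfr turned to -0.2 with the GC and length correction, Adam17 ranged from -0.45 to 0.36 and Erbb3 from -0.6 to 0.48 when 1 library was left out, with both ends set by which Ctrl library was missing. The cause of the turns was not tested. Erbb2, Lrig1, Rhbdf1 and Adam10 kept their sign in all 18 alternatives. Over the planned ones the adjusted p of Erbb2 ranged from 0.525 to 0.996, of Lrig1 from 0.505 to 0.996 and of Adam10 from 0.455 to 0.996. The difference in the Egfr share was 1.74 percentage points when counts were not divided by length and 0.185 after the GC and length correction.

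For Alkbh5, DESeq2 gave -2.01 with an adjusted p of 0.0248 on the genes tested in edgeR and -2.02 with 0.0224 by default filtering, and edgeR gave values from -2.63 to -1.58 when 1 library was left out. Deviations of libraries with the same number correlated at -0.35, and those with crossed numbers at 0.35. With 2 libraries per group these are mirror values, so they cannot show whether the numbers 1 and 2 pair the libraries. With the replicate number as a block, 754 genes had an unadjusted p under 0.05, against 1530 without it, and Lrig1 stood at -0.83 with no member past that level; with the block and the GC and length correction Egfr stood at -0.22. A crossed pairing as a block, chosen after seeing the data, gave 230 genes at an adjusted p under 0.05 and 2582 at an unadjusted one, with 1 member at the latter, and Alkbh5 at -2.06 (adjusted p 0.00112).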
